A study of Drosophila melanogaster with 2 samples.

Results

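The genes described here encode the protein components of the cytosolic ribosome of Drosophila melanogaster. They were chosen by name, as the protein-coding genes whose symbols start with RpL or RpS followed by a number, together with the acidic stalk proteins RpLP0, RpLP1 and RpLP2 and with sta, which encodes a small-subunit protein. The rule itself used no measured value, although it was set with earlier results of these data known. It gave 86 genes of 13968 protein-coding genes on the chromosome arms, 48 for the large subunit and 38 for the small subunit. Mitochondrial ribosomal proteins, genes named as "-like" and genes with a hyphenated symbol fell outside the rule. Letters after the number differ in meaning. RpL10A and RpS15A are proteins of their own, whereas a closing a or b in lower case marks 1 of 2 gene copies for the same protein, as in RpS19a and RpS19b.

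The assay was chromatin immunoprecipitation with sequencing (ChIP-seq) of CG31441, a predicted zinc-finger protein. There was 1 group of 2 biological replicates. Both were whole embryos, collected at ages from 0 to 16 hours, of a transgenic strain in which CG31441 is fused to enhanced green fluorescent protein. Sonicated chromatin was precipitated with an antibody against the tag. The labels do not say what drives the transgene, and the whole embryos mix all embryonic cell types. The data were 8 peak lists on assembly dm6, with no read counts, so read depth is unknown. A gene was called bound where the summit of at least 1 peak of the conservative list of the series lay within 500 bp of any of its transcription start sites (TSSs). That list kept peaks whose rank was reproducible. A ChIP of embryos without the tagged protein was not analysed here.

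A cytosolic ribosome needs 1 copy of almost every one of these proteins, so their genes are among the most highly and most evenly transcribed genes of growing cells. Loss of 1 of the 2 alleles of many of them gives flies the Minute phenotype, with slow development and short bristles. In Drosophila their promoters typically lack a TATA box and start transcription within a run of pyrimidines, the TCT initiator. Other short words known from promoters of housekeeping genes are the DNA replication-related element (DRE), bound by the factor Dref, and motif 1, bound by M1BP.

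The promoters below are printed because they show the words that recur in the results, and because they hold bound genes and unbound gene copies side by side. They were picked after the values and words were known. Each runs 5′ to 3′ on the strand of its gene and ends with the first 30 bases from the TSS, and the others lie before it. The sequence is that of the RefSeq genome (dm6). Capitals mark 3 words. These are ATCGATA, the centre of the DRE, on either strand (TATCGATA holds it on both strands at once), GGTCACACT, the core of motif 1, on either strand, and CTTT with a C or T on each side, the pyrimidine initiator, on the strand of the gene and within 20 bp of a TSS. RpS25, RpL27, RpL34a and RpL13 were bound. The last of these shares its promoter with Dref, whose TSS lies 84 bp away on the other strand. RpL13A was not called bound. Of the copies, RpS10b and RpS19a were bound, and RpS10a and RpS19b were not.
RpS25 (chr3R:11216258-11216437, minus strand): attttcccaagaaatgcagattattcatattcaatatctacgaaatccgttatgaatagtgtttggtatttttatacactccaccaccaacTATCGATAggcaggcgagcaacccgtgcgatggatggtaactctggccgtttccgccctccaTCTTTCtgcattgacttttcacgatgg
RpL27 (chr3R:25685022-25685201, minus strand): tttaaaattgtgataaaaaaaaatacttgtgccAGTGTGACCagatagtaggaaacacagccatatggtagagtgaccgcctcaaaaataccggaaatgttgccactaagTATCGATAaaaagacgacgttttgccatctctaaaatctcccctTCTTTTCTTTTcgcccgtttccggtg
RpL34a (chr3R:26059238-26059417, minus strand): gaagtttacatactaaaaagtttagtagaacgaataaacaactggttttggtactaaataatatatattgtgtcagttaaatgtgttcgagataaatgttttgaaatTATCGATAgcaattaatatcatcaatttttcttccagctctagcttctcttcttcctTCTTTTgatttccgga
RpL13 (chr2L:9967230-9967342, plus strand): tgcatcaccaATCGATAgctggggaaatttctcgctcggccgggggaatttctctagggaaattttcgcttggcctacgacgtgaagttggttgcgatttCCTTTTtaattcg
RpL13A (chr3R:5624324-5624503, plus strand): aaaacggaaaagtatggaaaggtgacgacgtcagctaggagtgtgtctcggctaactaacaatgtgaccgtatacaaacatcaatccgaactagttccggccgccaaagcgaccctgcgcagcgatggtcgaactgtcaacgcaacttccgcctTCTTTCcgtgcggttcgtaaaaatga
RpS10b (chrX:19597881-19598060, plus strand): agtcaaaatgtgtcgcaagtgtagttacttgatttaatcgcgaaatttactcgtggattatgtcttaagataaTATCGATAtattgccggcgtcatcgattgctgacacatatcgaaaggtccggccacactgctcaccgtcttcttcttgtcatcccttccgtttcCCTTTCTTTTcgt
RpS10a (chr3R:27652610-27652789, plus strand): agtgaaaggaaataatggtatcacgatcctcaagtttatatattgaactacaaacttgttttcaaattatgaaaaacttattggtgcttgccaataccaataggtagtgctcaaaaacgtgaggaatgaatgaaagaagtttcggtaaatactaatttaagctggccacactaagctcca
RpS19a (chrX:16637744-16637923, plus strand): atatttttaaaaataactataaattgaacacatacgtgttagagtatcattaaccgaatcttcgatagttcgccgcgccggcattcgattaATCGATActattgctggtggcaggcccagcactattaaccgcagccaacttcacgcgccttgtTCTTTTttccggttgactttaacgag
RpS19b (chr3R:23933501-23933680, minus strand): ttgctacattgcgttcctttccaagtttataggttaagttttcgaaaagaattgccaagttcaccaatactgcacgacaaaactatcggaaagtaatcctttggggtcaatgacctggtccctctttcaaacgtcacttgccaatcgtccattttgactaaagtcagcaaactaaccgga

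CG31441 was found at the promoters of most ribosomal protein genes. Of the 86 genes, 61 (70.9%, exact 95% confidence interval 60.1 to 80.2% on the gene count) were bound, against 18.2% of all protein-coding genes. The less strict list of the series gave 67 genes (77.9%), against 21.0% of all genes. The thresholded list of replicate 1 gave 65 genes (75.6%), against 17.3% of all genes, and that of replicate 2 gave 61 (70.9%), against 18.4%. The replicates' lists shared 53 of the ribosomal protein genes (61.6%), where 13.0% of all genes were in both. Neighbouring genes can share a promoter and a summit, so the genes are not independent of each other. Bound members lay on every arm, with 11 of 17 on 2L, 13 of 18 on 2R, 11 of 14 on 3L, 14 of 22 on 3R and 11 of 14 on X. For all protein-coding genes of these arms the share bound varied little, from 16.8% (2R) to 20.8% (3L). RpS3A, the single member on chromosome 4, was bound with a signal of 284.6, where 6 of 80 genes of that chromosome were bound.

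The peaks were of middling height. Peak signal was used as the authors deposited it, on an unstated scale that may differ between lists. The highest signal at each of the 61 bound genes ranged from 71.6 to 530.7, with a median of 280.9 and quartiles of 198.7 and 349.9. Over all 2541 bound genes the median was 240.7. Of the 61, 38 (62.3%) lay above that median, yet 1 gene, RpS27, lay above the 90th percentile of all bound genes (485.0), as did 9.96% of all bound genes. The ribosomal protein genes thus filled the middle of the range, and 2480 other bound genes had quartiles further apart, at 159.3 and 363.5. In the replicates' own lists the members had a median of 172.1 in replicate 1 and 107.2 in replicate 2, where all genes with a summit had 158.5 and 97.7. The ratio of replicate 1 to replicate 2 had a median of 1.46 over 51 bound members and 1.46 over 1675 other bound genes. The scale thus differed between the replicates by as much at other genes as at these. Peaks exactly 560 bp wide, a width that many peaks of the list share, were the strongest peak at 7 of the 61 members (11.5%), against 27.9% of the other bound genes.

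**Figure D1:**
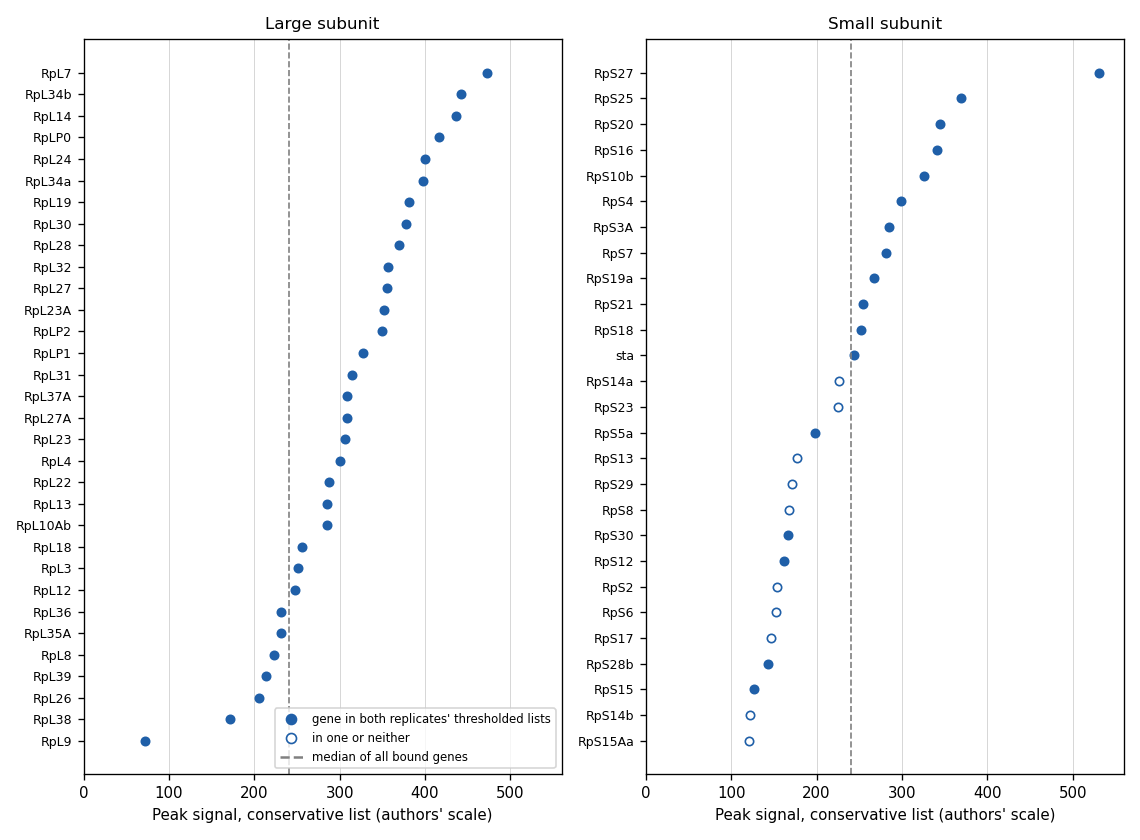
Highest peak signal in the conservative list (horizontal axis, authors' scale) for the bound ribosomal protein genes, large subunit on the left and small subunit on the right. Each point is 1 gene, filled where both replicates' thresholded lists hold a summit within 500 bp. The dashed line is the median of all bound genes, 240.7. The large-subunit points are all filled and lie mostly right of the line, and 10 of the small-subunit points are open.

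The highest of all was RpS27, for a zinc-binding protein of the small subunit. It had 330.6 in replicate 1, 198.3 in replicate 2 and 530.7 in the conservative list, with the summit 22 bp upstream of its TSS. Its promoter is shared with Nup37, a nuclear pore gene whose TSS lies 144 bp away on the other strand. RpL7 followed with 250.4 in replicate 1, 220.2 in replicate 2 and 472.8 in the conservative list, the highest of the large subunit. RpL34b had 442.2 and RpL14 had 436.8 in the conservative list. RpL14 shares its promoter with Nelf-E, which encodes a subunit of the negative elongation factor that holds paused RNA polymerase.

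The 3 genes of the ribosomal stalk, which recruits the translation factors with GTPase activity, were all bound. RpLP0, the base of the stalk, had 239.0 in replicate 1, 169.3 in replicate 2 and 416.0 in the conservative list. RpLP2 had 220.0, 126.6 and 349.9, and RpLP1 had 219.1, 111.6 and 327.6 in the same 3 lists. All 3 lay above the median of all bound genes.

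Other large-subunit genes among the 25 strongest were RpL24 (400.2), RpL34a (398.2), RpL19 (380.9), RpL30 (378.2), RpL28 (370.1) and RpL32 (356.4), the last being the gene long used as an expression reference in flies under the name rp49. RpL27 (355.1), RpL23A (352.0), RpL31 (315.0), RpL37A (308.5), RpL27A (308.1), RpL23 (306.5) and RpL4 (300.8) were also among them. From the small subunit the same 25 held RpS25 (369.8), whose protein is known for a role in initiation at internal ribosome entry sites, RpS20 (344.7), RpS16 (341.6) and RpS10b (325.9), besides RpS27. RpL3, whose protein reaches towards the peptidyl transferase centre, had 251.7, and sta had 243.5. RpS6, the substrate of S6 kinase, had 152.4 and was in the thresholded list of replicate 1 (130.0) but not in that of replicate 2.

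The weakest bound gene was RpL9, with 71.6. Its conservative peak was absent from the less strict list and lay in no thresholded peak of either replicate, although both of these lists held other summits within 500 bp, of 121.1 in replicate 1 and 107.2 in replicate 2. RpS15Aa had 120.2 and RpS14b 122.4. RpS14b was the only bound member with no summit in either replicate's thresholded list. Of the 61 bound members, 51 had a summit in both, 6 in replicate 1 alone and 3 in replicate 2 alone. Both lists held a summit for 1675 of the 2480 other bound genes. Few summits lay near the limit of 500 bp. The 1 summit within 100 bp of that limit was a second one at RpS28b, at 500 bp upstream with a signal of 35.4, and none lay just outside.

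The large subunit had higher peaks than the small, while a similar share of its genes was bound in the conservative list. Of the large-subunit genes 33 of 48 (68.8%, exact interval 53.7 to 81.3%) and of the small-subunit genes 28 of 38 (73.7%, 56.9 to 86.6%) were bound. In the other thresholded lists the share of the large subunit was the higher. It was 81.2% against 73.7% in the less strict list, 81.2% against 68.4% in replicate 1 and 79.2% against 60.5% in replicate 2. The median signal of the bound genes was 308.5 in the large subunit (quartiles 251.7 and 378.2) and 211.8 in the small (153.0 and 281.8). In the replicates' own lists replicate 1 gave a median of 182.2 for the large subunit and 137.6 for the small, and replicate 2 gave 120.2 for the large and 96.6 for the small. The ranges overlapped, as the highest member of all belongs to the small subunit and the lowest to the large.

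The bound large-subunit genes were also more often in both replicates' lists. Entry to those lists may depend on peak height, so this is not separate from the difference above. All 33 bound large-subunit genes had a summit in both replicates' thresholded lists, against 18 of the 28 bound small-subunit genes. Of the 2480 other bound genes, 1675 had a summit in both. Counted over all members, 35 of 48 large-subunit genes (72.9%) and 18 of 38 small-subunit genes (47.4%) were in both lists. Among peaks at or above the median signal of the conservative list (180.4), 31 of 48 large-subunit and 15 of 38 small-subunit genes were bound. These counts restate the difference in height. Gene copies are more frequent in the small subunit. Without the pairs, the shares bound were 30 of 44 (68.2%) in the large subunit and 21 of 26 (80.8%) in the small, and the median signal was 308.3 in the large subunit and 224.8 in the small. No test was run between the subunits, because the genes share 2 libraries and are not replicates.

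Summits at ribosomal protein genes lay close to the TSS. The 61 bound genes had 82 distinct summits, and 21 of the 61 genes (34.4%) had 2 of them, against 23.2% of the other bound genes. Here and below, member summits were measured to the nearest TSS of a member gene, and other summits to that of any protein-coding gene. The median position of the member summits was 43 bp upstream, with a median distance on either side of 60 bp. For the 2279 other promoter summits the median position was 137 bp upstream and the median distance 154 bp. Within 50 bp of a TSS lay 39 member summits (47.6%), against 308 of the others (13.5%). The band from 51 to 250 bp upstream held 28 member summits (34.1%), against 50.9% of the others. The share upstream at any distance was alike, at 81.7% (exact interval 71.6 to 89.4%) for members and 82.8% for the others. In the individual genes the strongest summit lay 6 bp upstream at RpL24, 10 bp at RpL37A, 19 bp at RpL14, 21 bp at RpL27 and 15 bp at RpL36. It lay further out at RpL34b (134 bp upstream) and RpS20 (144 bp), and downstream at RpL7 (19 bp).

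**Figure D2:**
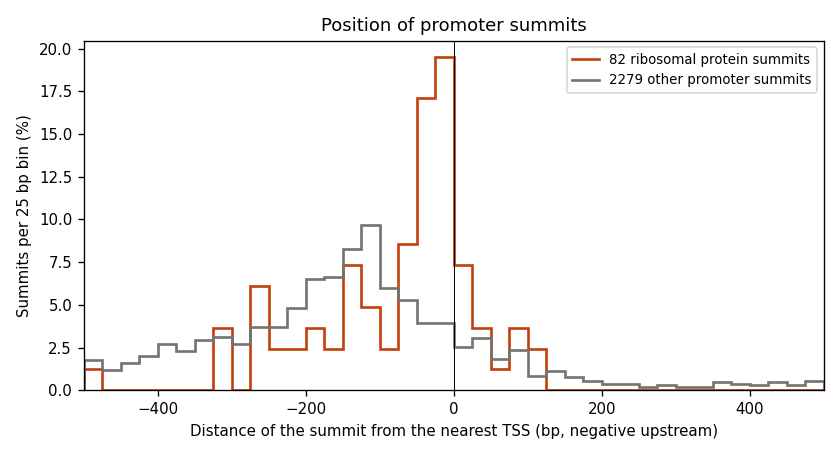
Share of promoter summits per 25 bp bin (vertical axis, %) against the distance of the summit from the nearest TSS (horizontal axis, bp, negative upstream), for the 82 ribosomal protein summits and the 2279 other promoter summits. For ribosomal protein summits the TSS is that of a member gene, and for the others that of any protein-coding gene. The ribosomal protein curve peaks in the 50 bp before the TSS, and the other curve is broad, with its highest bins further upstream.

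Base composition at the summits followed the same divide. Within 50 bp of a member summit the median content of G and C was 41.1%, against 29.7% at other promoter summits, where windows 400 bp to each side had 44.6% in both sets. Most promoter summits thus sat in sequence poor in G and C, and the member summits less so. Split by position, member summits within 50 bp of a TSS had a median of 47.5%, against 42.6% for other summits there. Member summits 51 to 250 bp upstream had 32.7%, against 27.7%. Member summits were therefore somewhat richer in G and C than other summits at both distances.

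The DRE word was frequent at the member summits. ATCGATA lay within 50 bp of 18 of 82 member summits (22.0%), against 120 of 2279 other promoter summits (5.27%). The flanks, windows of the same length centred 400 bp to each side, held it in 3.66% of cases for members and 1.76% for the others. The core of motif 1, GGTCACACT, lay at 6 member summits (7.32%) and 15 others (0.658%). The word TAATATA, made of A and T alone and typical of the other summits, went the other way, with 3 member summits (3.66%) and 272 others (11.9%). The GAGA repeat GAGAGAG was at 0 member summits and at 35 others (1.54%). The contrasts differed with position. Within 50 bp of a TSS, TAATATA was at 2 of 39 member summits (5.13%) and 4.87% of other summits, shares that lie close together. The DRE word there was at 28.2% of member summits and 15.3% of the others. At 51 to 250 bp upstream TAATATA was at 3.57% of member summits and 13.8% of the others, and the DRE word at 21.4% of member summits and 5.34% of the others. These words were searched on both strands, and TAATATA was chosen on these same summits.

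**Figure D3:**
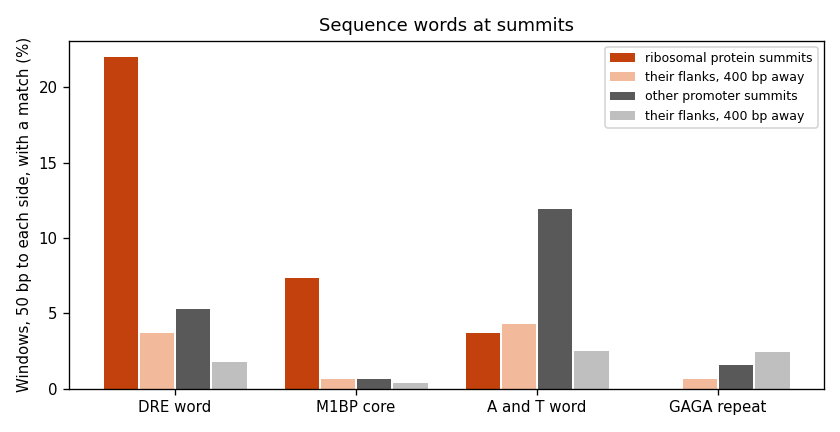
Share of windows of 50 bp on each side of the centre with a match on either strand (vertical axis, %) for the DRE word ATCGATA, the motif 1 core GGTCACACT, the A and T word TAATATA and the GAGA repeat GAGAGAG. Dark bars are windows centred on summits and pale bars the flanks 400 bp away, for ribosomal protein summits and other promoter summits. The DRE word reaches 22.0% at ribosomal protein summits and 5.27% at the others, and the A and T word 3.66% and 11.9%.

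Over whole promoters, from 250 bases before to 50 after a TSS, ATCGATA was present at 37.2% of the 86 members and 20.2% of all genes. Among members it was present at 27 of 61 bound genes (44.3%) and 5 of 25 unbound genes. Outside the family it was likewise more frequent at bound genes (27.3%) than at unbound ones (18.5%). GGTCACACT was present at 12.8% of members and 6.77% of all genes, with 10 of the 61 bound genes (16.4%) and 4.0% of the unbound ones. Genes with several TSSs have more promoter sequence to match, and among genes with a single TSS the DRE word was present at 33.3% of members and 17.8% of all such genes. For the motif 1 core the single-TSS shares were close together, at 3 of 42 members (7.14%) and 5.99% of all such genes. The DRE word did not go with stronger peaks. Bound members with the DRE word had a median signal of 267.5 (n = 27) and those without it 285.9 (n = 34), whereas those with the motif 1 core had 318.1 (n = 10) and those without it 256.1 (n = 51), with wide overlap of the ranges. A match is a description of the letters and shows no binding of Dref or M1BP.

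The pyrimidine initiator was shared by nearly all members, bound or not. It lay within 20 bp of a TSS in 77 of 86 members (89.5%), against 6.59% of all protein-coding genes. The share was 57 of 61 (93.4%) in bound members and 20 of 25 (80.0%) in unbound members. It was present in 8.47% of the other bound genes and 5.55% of the other unbound genes, so few bound promoters outside the family carried it. The bound members without it were RpS2, RpS12, RpS20 and sta, and the unbound ones RpL10Aa, RpL17, RpS10a, RpS15Ab and RpS19b. TATAAA in the window from 40 to 15 bases before the TSS was found at 1.16% of members, against 9.39% of all genes.

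The promoters of bound members were often shared with other genes. Of the 61 bound genes, 28 (45.9%) had the TSS of a gene on the opposite strand within 500 bp upstream, against 6 of the 25 unbound ones (24.0%), 46.9% of the other bound genes and 27.3% of all genes. The share in bound members was thus that of bound genes in general. Read the other way, 28 of 34 members with such a neighbour (82.4%) and 33 of 52 without one (63.5%) were bound, against 31.2% of all genes with one and 13.3% of those without. The summit itself lay within 500 bp of another protein-coding gene for 33 of the 61. The peak of such a promoter cannot be given to 1 gene. Among these neighbours were eIF1, an initiation factor, at RpL28, and Mybbp1A at RpL36. RpS6 shared its summit with bys, a gene for assembly of the small subunit. The number of start sites also went with binding, and a gene with more of them has more windows to hold a summit. Members with several TSSs were bound in 35 of 44 cases (79.5%) and those with a single TSS in 26 of 42 (61.9%), against 31.3% of all genes with several and 13.5% of those with 1. Small nucleolar RNA genes lay inside 34.4% of bound and 32.0% of unbound members, against 0.601% of all genes. The share was thus alike in bound and unbound members.

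Many of the 25 unbound members had a peak that the conservative list leaves out. In at least 1 other thresholded list, 14 of the 25 had a summit within 500 bp, which brought the members with any such evidence to 75 of 86 (87.2%), against 26.0% of all genes. With the unthresholded lists added, 82 of 86 (95.3%) had a summit in at least 1 of the 8 lists, against 49.2% of all genes. The 4 members in none were RpL10Aa, RpL29, RpS19b and RpS28a. RpL29 was the only 1 of these 4 with no second copy.

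Of the large subunit, RpL10, RpL15, RpL17, RpL21, RpL35, RpL5 and RpL7A were in the less strict list and not in the conservative one. RpL17 had the highest signal there, 241.6, with 145.2 in replicate 1, and RpL10, whose protein joins late in assembly, the lowest, 81.5, with 123.9 in replicate 1. RpL15 had 84.7 in replicate 1 and RpL35 had 60.4 in replicate 2. RpL21 passed the threshold of neither replicate, and had 80.3 in replicate 1 before thresholding. RpL7A had 123.1 in replicate 1 and 70.9 in replicate 2, and RpL36A had 171.7 and 77.7. These 2 were the unbound members in both replicates' thresholded lists. RpL5 and RpL11, whose proteins form a particle with 5S ribosomal RNA, were each in 1 replicate alone, RpL5 with 91.1 in replicate 1 and RpL11 with 157.3 in replicate 2. RpL41, which encodes the smallest ribosomal protein, had 173.7 in replicate 2 and no summit in replicate 1.

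RpL13A was the odd one, since its peak had 222.2 in replicate 1 and 135.6 in replicate 2, with 357.2 in a series list before thresholding. Its score, the authors' scaled measure of reproducibility, was at the maximum of 1000 in all 3 of these lists, yet the peak was in none of the 4 thresholded lists. No peak of the conservative or less strict list scored under 830. In the series lists before thresholding, 5987 peaks scored at least 830 in both, and 106 of these were in neither thresholded list of the series. RpL13A was the only member with such a peak. The reason is not stated in the sources used here and was not tested.

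Of the small subunit, RpS26 (115.8) and RpS3 (103.1) passed the threshold in replicate 1 but not in replicate 2, and RpS9 (61.5) and RpS27A (92.0) did so in replicate 2 but not in replicate 1. RpS27A and RpL40 encode ribosomal proteins fused to ubiquitin. RpL40 was in no thresholded list, with 56.7 in replicate 1 and 16.7 in replicate 2 before thresholding. RpS24 had 35.9 and RpL6 had 34.6, both in replicate 2 alone and before thresholding. The other unbound small-subunit genes were all second copies.

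**Figure D4:**
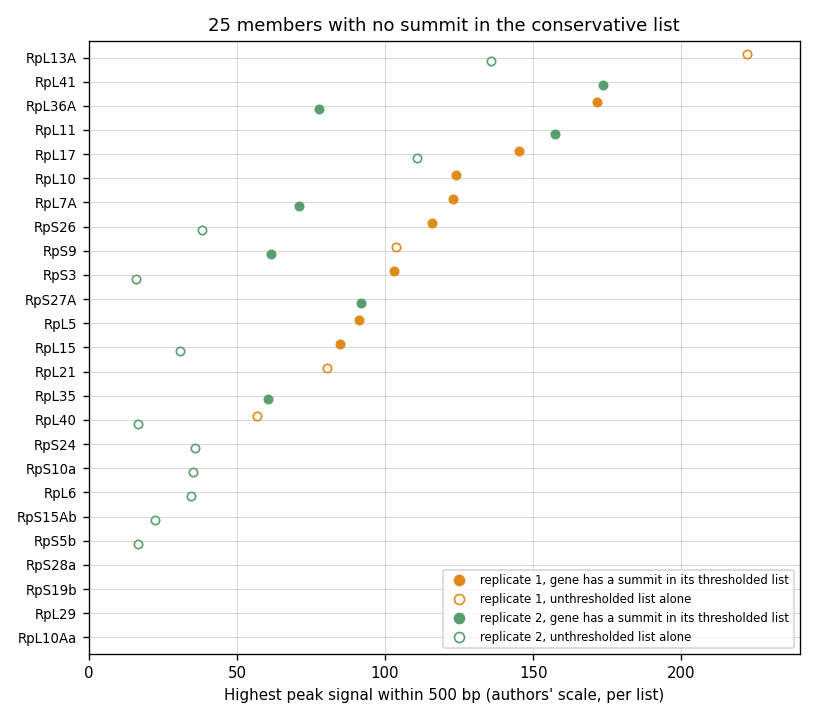
Highest peak signal within 500 bp of a TSS (horizontal axis, authors' scale) in the unthresholded list of each replicate, for the 25 ribosomal protein genes with no summit in the conservative list. Points are filled where the gene has a summit in the thresholded list of that replicate. RpL13A has the highest point of replicate 1, 222.2, and RpL41 that of replicate 2, 173.7. Both points of RpL13A are open, and 4 genes have no point.

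Gene pairs were mostly split. There were 8 pairs of copies for 1 protein, and in 6 of them exactly 1 copy was bound. The same 6 pairs were split in the less strict list and in the thresholded list of replicate 2. In that of replicate 1 the split pairs also numbered 6, with RpS14 in place of RpS15A. RpL10Ab had 284.9, with 206.9 in replicate 1 and 75.7 in replicate 2, and RpL10Aa had no summit in any list. RpS19a had 267.5, with 197.5 and 93.0, and RpS19b had none within 500 bp in any list. Its nearest conservative summit lay 876 bp from its TSS. RpS28b had 143.5, with 86.7 and 56.9, and RpS28a had none in any list. The unbound copy in each of these 3 pairs thus had no summit within 500 bp even before thresholding. RpS10b had 325.9, with 202.0 and 141.9, and RpS10a had 35.1, in replicate 2 alone and before thresholding. RpS5a had 198.7, with 113.7 and 83.8, and RpS5b had 16.5 likewise. RpS15Aa had 120.2, with 57.8 in the thresholded list of replicate 2, and RpS15Ab had 22.5 likewise. RpS5b and RpS19b are known for expression in the female germline.

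Both copies were bound in 2 pairs. RpL34a had 398.2 and RpL34b 442.2, with 224.1 and 209.6 in replicate 1 and 156.7 and 233.7 in replicate 2. RpS14a had 226.2 and RpS14b 122.4. The RpS14 genes start 1156 bp apart on X and share 126 words of 36 bases around their promoters. Of the RpS14a and RpS14b promoter windows, 13.0% and 24.8% of such words occur elsewhere in the genome, so short reads may not tell these copies apart. Among the unbound copies RpS15Ab had 17.0% repeated words, and the other copies in pairs had 0.

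The promoters of most split pairs differed in these words. In the 6 split pairs, all 6 bound copies had the pyrimidine initiator, and 2 of the 6 unbound copies did, RpS5b and RpS28a. The DRE word was present in 5 of the 6 bound copies and in 1 of the 6 unbound copies, RpS15Ab. Each unbound copy has 1 TSS, whereas RpS10b has 3 and RpS5a, RpS15Aa and RpS19a have 2 each. Bound copies with several TSSs thus had more sequence to match. RpS5a and RpS5b did not differ in these words, as both have the initiator and neither has the DRE word or the motif 1 core. RpS10b and RpS19a hold both words, and RpS10a and RpS19b hold neither. Of the 70 members without such a copy, 51 were bound and 65 were in at least 1 thresholded list, so that copies made up 6 of the 11 members absent from all 4.

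**Figure D5:**
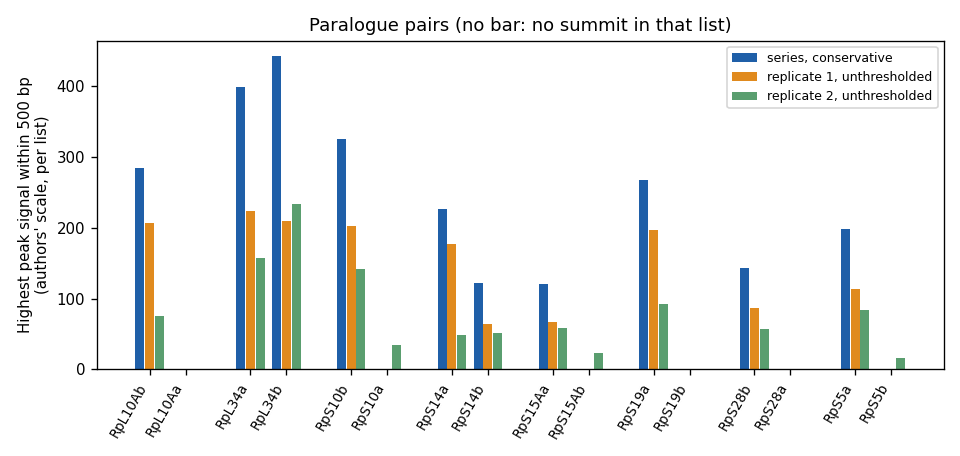
Highest peak signal within 500 bp of a TSS (vertical axis, authors' scale, separate for each list) for the 8 pairs of gene copies, with the bound copy on the left where 1 is bound. Bars are the conservative list of the series and the unthresholded lists of both replicates, and a missing bar means no summit. In 6 pairs the bar of the conservative list is present for 1 copy alone.

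Genes close to these by name or task were bound in smaller shares than the members. Of 5 genes named as "-like" forms of ribosomal proteins, 0 were bound. RpLP0-like, with 100.5, was in the less strict list, and RpL7-like, with 48.1, in the thresholded list of replicate 2. RpL37-1, outside the rule by its symbol, had 169.6, and RpL37-2 was not bound. Of 24 ribosome assembly genes found by symbol, 6 were bound, against 18.2% of all genes. Among these 6 was bys, bound through the summit that it shares with RpS6. The strongest were eIF6, which keeps the large subunit from joining too early, with 558.9, NHP2, of the H/ACA ribonucleoprotein, with 407.5, the nucleolar Nopp140 with 200.4, and Fib, the nucleolar methyltransferase fibrillarin, with 168.2. The share of assembly genes bound was thus near that of all genes.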

How the data were processed

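ChIP-seq peaks of 2 replicates of tagged CG31441 embryos were analysed from 8 deposited peak lists on dm6. The signal of a peak and its score, a scaled irreproducible discovery rate (IDR), are the authors' deposited values. The summit offset within a peak is also the authors' value. Per the readme deposited with the samples, 4 lists came from both replicates and 4 from single replicates, each with 1 further file, so peaks were called per replicate and on both together. The peak caller is not given in the sources consulted. The ranked lists of the series hold 16 further value columns for single inputs, which were not used. The conservative list (6501 peaks) was the main set, and the thresholded lists of replicates 1 and 2 held 4964 and 5484 peaks.

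Genes and TSSs came from Ensembl release 115 (19630 TSSs), matched by symbol, and sequence from the RefSeq genome of dm6, with coordinates counted from 1. A gene was called bound with a summit within 500 bp of any TSS. No significance test was run, since the lists give 1 group. Intervals are exact (Clopper-Pearson) on counts of genes or summits and cover counting error only. The members and gene lists were chosen with earlier results of these data known. Genes were named by rule: the 25 highest signals, every unbound member, all copies in pairs, members with unsupported summits or near the 500 bp limit, and the 4 strongest of each other list, and others were added for their function or rank after their values were seen. Single values of some genes the rule names are not reported here, and these genes are left out of the plot of signal by gene. The assignment of summits to TSSs was tested on simulated data, with summits planted at known offsets. Python 3.11.15, numpy 2.4.6, scipy 1.17.1 and matplotlib 3.10.9 were used.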

Additional observations from a re-analysis of the deposited data

How the results depend on the processing

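Of 49 alternative values, 44 kept within their limits of the main one. The bound members numbered 46 among peaks at or above the median signal to 67 in the less strict list, and large-subunit members 31 to 39. The small-subunit members bound fell to 15 among peaks at or above the median signal, against 28 in the whole list. The median signal of bound members was 107.2 to 172.1 in the lists that leave out 1 replicate, against 280.9, and those lists may have another scale. Without replicate 1 the share of member summits upstream was 66.2%, and without replicate 2 it was 88.3%, against 81.7%. The DRE word was present in 22.0% of summit windows, against 37.2% of promoters. The number of split gene pairs was 6 in every planned setting, though in replicate 1 alone RpS14 stood in place of RpS15A. A window of 1000 bp, used for the count of bound members, was not among the settings for pairs. The unbound copy RpS19b had its nearest conservative summit at 876 bp. The number of split pairs was 7 where summits in no thresholded peak of either replicate were left out, since RpS14b then counted as unbound. That setting was chosen after seeing the data. The causes were not tested. No paired analysis was possible because there is 1 group. Read depth is unknown, so an unbound gene was not shown to lack the protein.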
